A study of Gallus gallus with 41 samples.

Results

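Wnt proteins are secreted, lipid-modified signals. WLS (Wntless) carries them from the Golgi to the cell surface, and Frizzled proteins with their LRP co-receptors receive them. Secreted proteins of the SFRP family can bind Wnt proteins, and some secreted Dickkopf proteins, such as DKK1, bind the LRP co-receptors. In the vertebrate eye the pathway acts in the field that forms the eye, at the retinal margin and in the wiring of retinal neurons, and Frizzled 5 is known from the eye field of frogs and the optic cup of mice. Here 5 genes are described in single cells of the embryonic chick retina. They are WLS, the receptor gene FZD5, and DKK3, SFRP1 and SFRP2, which belong to families with secreted Wnt antagonists.

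The members were taken as every probe set whose platform symbol is one of these 5 names, which gave 10 of the 38535 probe sets of the array and 5 of 13009 named genes. WLS, DKK3 and SFRP2 have 1 probe set each, FZD5 has 3 and SFRP1 has 4. The genes were chosen by measured values of these same cells. WLS in particular was selected on its difference between E9 and E6, so its levels are given as a description with no test, and the levels of the other members were also known when they were chosen. All 10 probe sets passed the filter used for the fit, which asks for 3 cells or more in which the probe set was detected.

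The cells came from untreated chicken retinas that were dissociated with papain and sampled without culture, and each cell was put on an Affymetrix chicken array of its own. There were 6 cells at embryonic day 3 (E3), 3 at E4, 5 at E5, 10 at E6, 1 at E7, 6 at E9, 8 at E14 and 2 at E15, which makes 41 cells, while the series text names 39. Strain, sex and embryo are not in the labels, so an age counts as 1 sample, its cells are not replicates, and a standard deviation (SD) over cells describes their spread alone. E6 replicate 1 carries E6 in its title and time point and E5 as its source, and it stands with the E6 cells here.

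Values are log2 MAS5 signals, and arrays carry no counts, so the number of cells limits the precision. For means, values under log2 5.004, the median of the whole table, were raised to that floor. Detection in a cell means a signal that reaches the 80th percentile of the array, so 20% of probe sets are detected on every array and a tested probe set was detected in a median of 9 cells. Array medians lay between 3.90 and 5.50 on 35 arrays and between 6.82 and 7.88 on the other 6, called arrays of high background: all 3 at E4, E6 replicate 7 and both at E15. No 2 arrays correlated above 0.850 over probe sets, so none looked like a repeat. Of 17 ganglion cell markers on the array, 9 to 13 were detected in each E6 cell, 9 to 11 in each E9 cell and 10 to 12 in each E14 cell, against 1 to 5 at E3 and 2 to 5 at E4. E15 replicates 2 and 3 had 7 and 5 of them, with 4 and 1 of 4 bipolar genes and 4 and 5 of 8 photoreceptor genes. The E14 cells had 1 to 2 of the bipolar and 0 to 6 of the photoreceptor genes. E15 replicate 3 thus lay within the E14 range on both lists and replicate 2 on the photoreceptor list. The ganglion cell counts of both E15 cells lay under those at E14, so age and a difference in cell type cannot be told apart there. Of 28 cell cycle genes, 8 to 24 were detected at E3, 19 to 24 at E4, 1 to 18 at E5, 2 to 9 at E6, 26 in the E7 cell, 3 to 8 at E9, 2 to 7 at E14 and 6 to 7 at E15. Haemoglobin genes stood high in 2 E3 cells labelled as retina: the mean of the 4 erythroid genes was 16.47 in E3 replicate 4 and 16.68 in E3 replicate 6, against 5.44 in E3 replicate 3.

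WLS, the carrier that brings Wnt proteins to the cell surface, was detected in every E9 cell and in 1 of 10 E6 cells. Its probe set is of the kind that can share probes with other transcripts, by its suffix. At E9 the deposited signal had a lowest value of 9.49, a median of 12.64 and a highest of 13.79, against a lowest of 1.12, a median of 2.89 and a highest of 11.63 at E6. The groups overlapped through a single cell: E6 replicate 4, at 11.63, lay above E9 replicates 2 and 4, at 9.49 and 10.56, and the next E6 cell was replicate 7 at 5.51. On floored values WLS averaged 12.12 ± 1.73 at E9 (SD, n = 6 cells) and 5.72 ± 2.09 at E6 (SD, n = 10 cells), a difference of 6.41 log2 units. With any 1 of these cells left out, the difference lay between 6.07 and 7.06. Of the 24896 probe sets tested, 2 (0.00803%) were detected in all E9 cells and at most 1 of the 10 E6 cells, WLS among them, and 2.14% had means that differed by at least 3 log2 units between E9 and E6 in either direction. WLS was chosen on this contrast, so nothing is read from these shares.

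Before E9, WLS was detected in 2 cells of 25, which were E6 replicate 4 and E3 replicate 1. E3 replicate 1 read 13.57, at the 97.2 percentile of its array, and the other E3 cells read 4.75, 5.87, 2.32, 5.10 and 1.04. None of the E4, E5 or E7 cells passed the detection limit. The E4 cells read 3.94, 3.81 and 4.18, which is within the lowest 10.5% of their arrays of high background, and the E7 cell read 1.23. The E5 cells read 1.10, 6.63, 2.53, 2.77 and 3.13, and the highest, replicate 2, stood at the 79.8 percentile of its array, just under the detection limit. The counts at these ages were thus 0 of 3, 0 of 5 and 0 of 1 cells. The 95% intervals (exact, Clopper-Pearson), which account for counting error alone, allow shares of up to 70.8% at E4, 52.2% at E5 and 97.5% at E7.

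After E9, WLS was detected in 6 of 8 cells at E14. The WLS signal at E14 had a lowest value of 3.004, a median of 13.99 and a highest of 14.66. Replicates 5 and 7, at 3.19 and 3.004, were below the floor, replicate 8 read 8.51, and the other 5 read 13.90 to 14.66, above the highest E9 cell. The mean was 11.24 ± 4.34 at E14 (SD, n = 8 cells) against 12.12 ± 1.73 at E9 (SD, n = 6 cells), a difference of -0.88 that is smaller than the spread of the E14 cells and that became 0.01 with 1 cell left out. E14 replicates 5 and 7, in which WLS was not detected, had 11 and 10 of the 17 ganglion cell markers detected, within the 10 to 12 of the age. The E15 cells read 6.32 and 9.62, at the 29.1 and 75.9 percentiles of their arrays of high background, and neither was detected. The mean of the erythroid genes ran from 6.10 to 10.35 over E14 cells and from 5.28 to 6.64 over E9 cells. In the 2 E14 cells in which WLS was not detected, the erythroid mean was 6.69 and 9.43. The part of erythroid signal in the result was not tested.

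**Figure D1:**
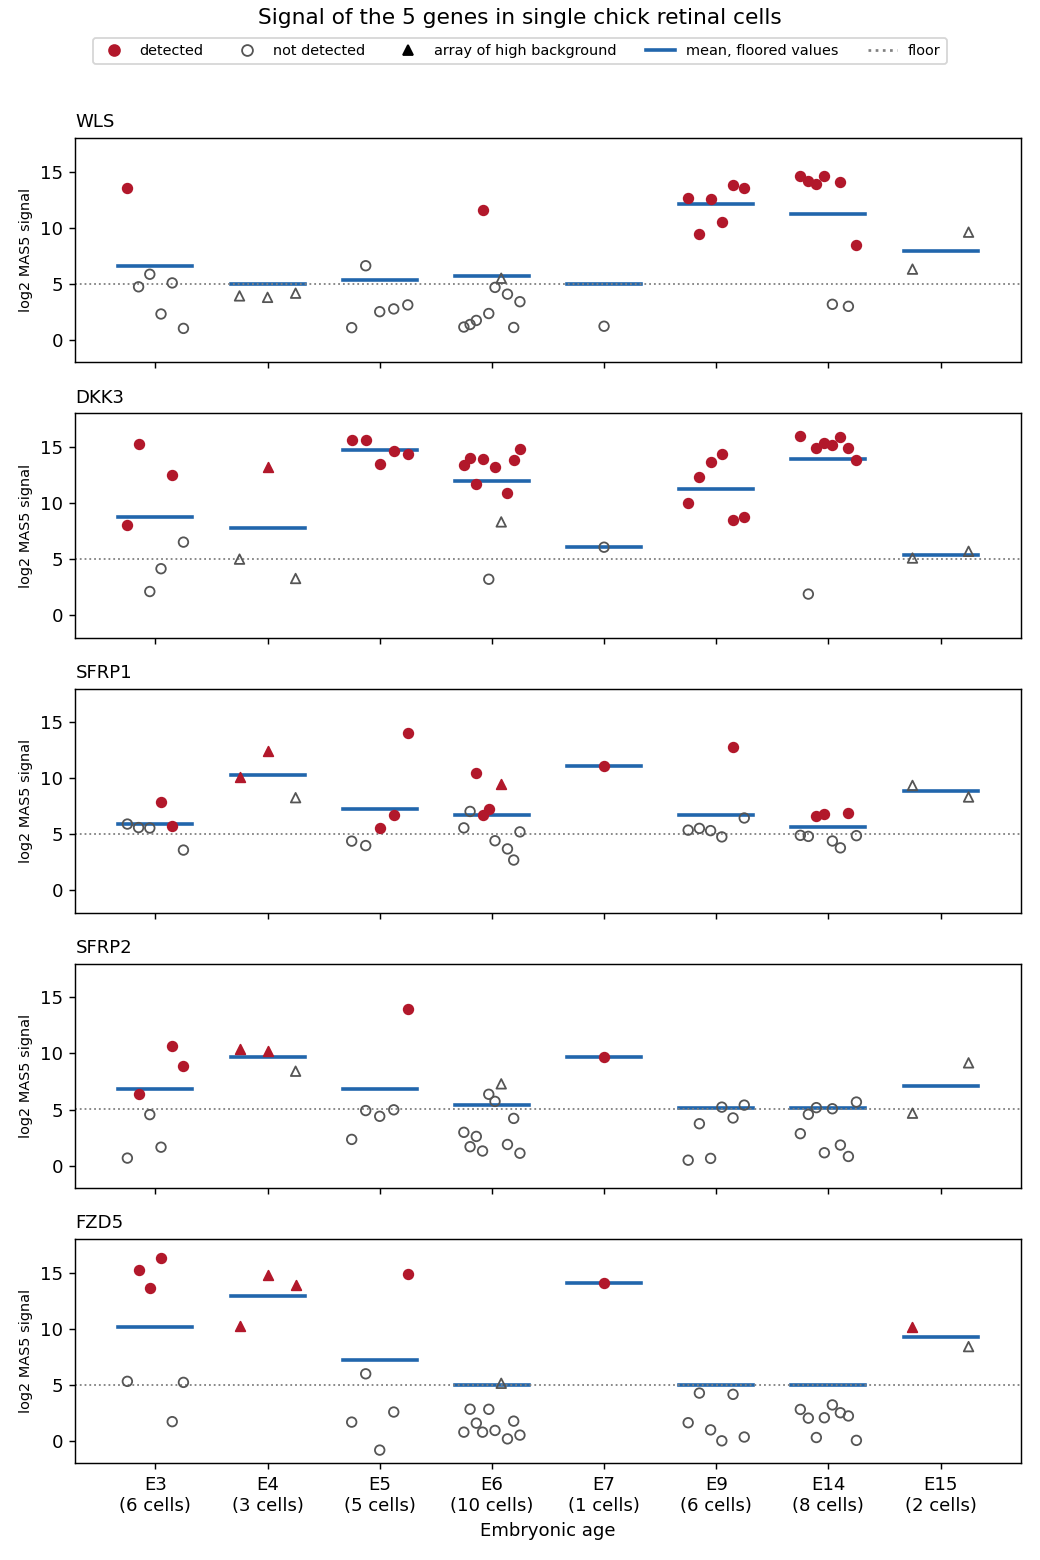
Log2 MAS5 signal of WLS, DKK3, SFRP1, SFRP2 and FZD5 in each of 41 cells (vertical axis) at 8 embryonic ages (horizontal axis). Filled marks are cells in which the gene was detected, open marks are not detected, triangles are arrays of high background, blue bars are means of floored values and the dotted line is the floor at 5.004. WLS lies high in all 6 E9 cells and 6 of 8 E14 cells, and FZD5, on the probe set used, lies under the detection limit in every cell of E6, E9 and E14.

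DKK3 was the member found in most cells. It encodes a secreted Dickkopf protein that, unlike DKK1, is not an established ligand of the LRP co-receptors, and its effect on Wnt signalling is known to vary with the tissue. It was detected in 30 of 41 cells: 3 of 6 at E3, 1 of 3 at E4, 5 of 5 at E5, 8 of 10 at E6, 0 of 1 at E7, 6 of 6 at E9, 7 of 8 at E14 and 0 of 2 at E15. The E5 cells read 15.64, 15.64, 13.51, 14.67 and 14.40, so all 5 lay within about 2 log2 units of each other. The E3 cells read 8.06, 15.25, 2.11, 4.15, 12.50 and 6.52 and lay between the 18.5 and 99.1 percentiles of their arrays. E5 thus had the narrowest spread of DKK3 among the ages with at least 3 cells, with a mean of 14.77 ± 0.90 (SD, n = 5 cells).

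The E6 cells had a lowest DKK3 value of 3.21, a median of 13.33 and a highest of 14.80, and replicates 5 and 7 were not detected. The E9 cells had a lowest of 8.52, a median of 11.14 and a highest of 14.36. At E14 the lowest was 1.89, in replicate 2, while the median was 15.07 and the highest 15.99. Apart from E14 replicate 2, the E14 cells read 13.84 or more. Mean floored signals were 11.93 ± 3.10 at E6 (n = 10 cells), 11.26 ± 2.52 at E9 (n = 6 cells) and 13.90 ± 3.66 at E14 (n = 8 cells, all SD). The difference was -0.67 for E9 minus E6 and 2.64 for E14 minus E9, each under the SD of the cells of its later age. Its E6 minus E3 difference of 3.21 was likewise under the E3 SD of 4.24, and it was 1.73 without E3 replicates 4 and 6, the cells of high haemoglobin signal.

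DKK3 was not detected in some cells that carried other members. The E4 cells read 5.003, 13.26 and 3.28, and replicate 3 stood at the 0.75 percentile of its array. The E7 cell read 6.07, and the E15 cells read 5.10 and 5.70 on arrays of high background. Those 2 E15 values lie at the 8.52 and 18.3 percentiles, under every E9 cell.

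SFRP1 and SFRP2 encode secreted proteins with a cysteine-rich domain like that of the Frizzled receptors, by which they can bind Wnt proteins. On its probe set with the highest mean, SFRP1 was detected in 16 of 41 cells, spread over 7 of the 8 ages, at levels mostly close to the detection limit. High signals were found in single cells. E5 replicate 5 read 14.03, E9 replicate 5 12.75, E4 replicate 2 12.41, the E7 cell 11.07 and E6 replicate 3 10.51. The other E9 cells read 5.38, 5.53, 5.33, 4.77 and 6.46, and the other E5 cells 4.40, 3.997, 5.55 and 6.72, so 1 cell at each of these ages stood apart. At E14 the lowest SFRP1 value was 3.79, the median 4.90 and the highest 6.92, and at E3 they were 3.60, 5.69 and 7.84. The lowest E6 value was 2.71, with a median of 6.17 and a highest of 10.51. The E15 cells read 9.36 and 8.33, which on their arrays of high background is the 74.2 and 54.4 percentiles, and neither was detected on this probe set. The E4 cells, which read 10.09, 12.41 and 8.27 on arrays of high background, and the E15 cells lay above every E3 and E14 cell. The E3, E6, E9 and E14 cells overlapped each other. Their mean floored signal was 5.95 ± 0.98 at E3 (SD over cells), 6.69 ± 1.97 for the E6 cells, 6.74 ± 2.98 for the E9 cells and 5.67 ± 0.92 for the E14 cells.

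The 4 SFRP1 probe sets did not all follow the same cells. The probe set used above and a second from the same design record correlated at r = 0.73 over the 41 cells and both detected SFRP1 in 5 cells. For E5 replicate 5 they disagreed, at 14.03 and 2.54. The other pair, from a different record, correlated with the probe set used above at r = 0.31 and 0.18. These are correlations over cells that share arrays and background levels, given as a description. Detection by age also depended on the probe set. Of the other pair, the probe set ending in A1_at was detected in 17 cells, with 2 of 2 at E15 and 0 of 1 at E7. The second probe set of the record used above was detected in 6 cells, with 0 at E3, E14 and E15. Each high reading of SFRP1 in E4 replicate 2, E6 replicate 3, the E7 cell and E9 replicate 5 was found on both probe sets of the record used above.

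**Figure D2:**
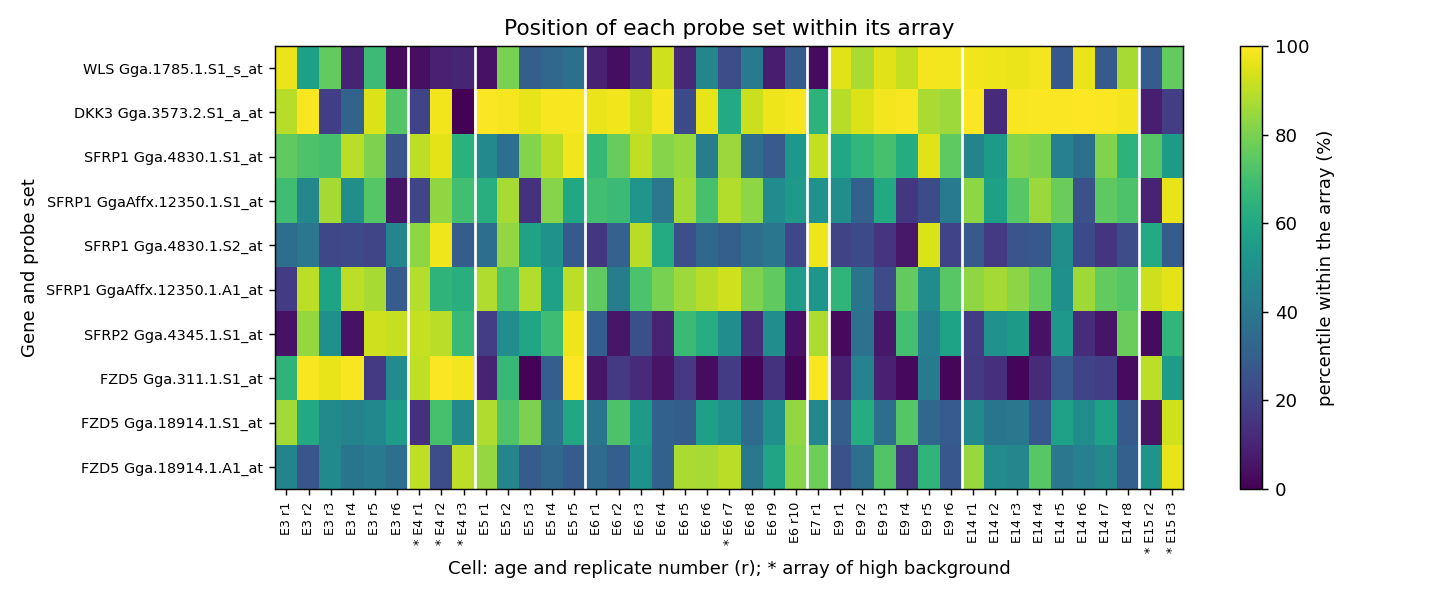
Percentile of each of the 10 probe sets within its own array (colour, 0 to 100%), with probe sets in rows and the 41 cells in columns ordered by age; white lines part the ages and asterisks mark arrays of high background. The row of WLS is bright in all 6 E9 cells and in 6 of 8 E14 cells and dark in E14 replicates 5 and 7 and E15 replicate 2, and the 3 rows of FZD5 do not follow each other.

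SFRP2 was detected in few cells of this series. In mice it is known from retinal progenitors. It was detected in 7 of 41 cells, which were 3 of 6 at E3, 2 of 3 at E4, 1 of 5 at E5 and the E7 cell. The 2 at E4 were on arrays of high background. Among the 24 cells of E6, E9 and E14 it was detected in 0. The E3 cells read 0.67, 6.40, 4.54, 1.64, 10.69 and 8.85, and the E4 cells 10.38, 10.21 and 8.42. At E5, replicate 5 read 13.96 and the others 2.33, 4.91, 4.39 and 4.97, while the E7 cell read 9.66. The highest value was 7.29 at E6, on the array of high background, 5.39 at E9 and 5.67 at E14, so the cells of these 3 ages overlapped the lower E3 cells and none reached the 8.85 of E3 replicate 6. The E15 cells read 4.67 and 9.16, at the 2.95 and 65.9 percentiles. Mean floored signals were 5.44 ± 0.79 at E6 (SD, n = 10 cells) and 6.83 ± 2.42 at E3 (SD, n = 6 cells), and the difference of -1.39 is smaller than the spread at E3.

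FZD5, a Frizzled receptor, divided the cells into high and low ones on the probe set with the highest mean. It was detected in 9 cells: 3 of 6 at E3, 3 of 3 at E4, 1 of 5 at E5, the E7 cell and 1 of 2 at E15. The E3 cells read 5.30, 15.27, 13.61, 16.26, 1.70 and 5.21, so that 3 cells stood at the 96.8 percentile or above and 3 did not pass the limit. The E4 cells read 10.23, 14.75 and 13.88. At E5, replicate 5 read 14.83 and the others 1.66, 5.97, -0.83 and 2.56, and the E7 cell read 14.07. No value fell between 5.97 and 8.40, the higher being that of E15 replicate 3, which lay at the 55.2 percentile of its array and was not detected.

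In the E6, E9 and E14 cells FZD5 was low without exception on that probe set. Its highest values were 5.13 at E6, 4.25 at E9 and 3.20 at E14, against medians of 1.25, 1.29 and 2.13. No cell was detected among 10, 6 and 8, which allows shares of up to 30.8%, 45.9% and 36.9% by exact Clopper-Pearson intervals. Over these 24 cells, SFRP2 and FZD5 on the probe set used, 2 of the 5 members, were detected in none, and 3.59% of all tested probe sets were likewise detected in none. The mean of FZD5 was 5.02 ± 0.04 at E6 (SD, n = 10 cells) and 10.11 ± 5.48 at E3 (SD, n = 6 cells), a difference of -5.09, which is within the SD of the E3 cells because 3 of them were at or near the floor. DKK3 and FZD5, 2 of 5 members, had means at least 3 log2 units apart between E6 and E3, against 8.94% of all tested probe sets in either direction. Between E14 and E9 none of the 5 did, against 6.21%. The members were chosen with their levels in these cells known, so nothing is read from these shares or from the 3.59%.

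The other FZD5 probe sets gave another picture. Both come from another design record. The probe set whose name ends in A1_at was detected in 9 cells, of which 2 were among the 9 above, and it correlated with the probe set used above at r = 0.18 over 41 cells. Its partner was detected in 5 cells, none of them among those 9, with r = 0.11. The A1_at probe set was detected in 4 of 10 cells at E6, 0 of 6 at E9 and 1 of 8 at E14, and its partner in 1, 0 and 0, so the count of 0 over these ages holds for the first probe set alone. On the A1_at probe set the E6 cells averaged 6.19 ± 1.70 and the E3 cells were all at the floor, so that the E6 minus E3 difference was 1.19 and had the opposite sign. Which of these probe sets reads FZD5 was not tested, and the other statements on FZD5 hold for the probe set with the highest mean of floored values.

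Markers of other cell types were read beside FZD5 and SFRP2. The erythroid mean ran from 5.44 to 16.68 at E3, 6.001 to 8.34 at E4, 5.21 to 6.88 at E6 and 5.28 to 6.64 at E9. In E3 replicates 1 to 6, in order, the erythroid mean was 7.17, 10.48, 5.44, 16.47, 5.72 and 16.68. FZD5 read 5.30, 15.27, 13.61, 16.26, 1.70 and 5.21 in the same cells. High FZD5 was thus found both in cells of high and of low erythroid mean, and a relation was not tested. SFRP2 read 1.64 in E3 replicate 4 and 8.85 in E3 replicate 6, the cells of high haemoglobin signal. Without E3 replicates 4 and 6 the E6 minus E3 difference was -4.78 for FZD5 and -1.33 for SFRP2. Of 10 pigment epithelium genes, 4 were detected in at least 3 cells. A cell had 2 to 3 of the 10 at E3, 0 to 1 at E4, 0 to 2 at E5 and 0 to 3 at E6. The counts were 2 in the E7 cell, 0 to 1 at E9, 0 to 3 at E14 and 1 to 2 at E15. Of 7 microglia genes, 1 to 3 were detected at E3, 1 to 2 at E4, 2 in each E5 cell and 0 to 1 at E6, E9 and E14. The E7 cell had 0 and the E15 cells 1 to 3. The part of these cell types in the results was not tested.

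Slopes over embryonic day were fitted with limma to the 8 age means of every tested probe set, weighted by their cells. The cells of the ages also differed in cell type markers, and a slope does not part this from age. None of the 4 members other than WLS passed an adjusted p of 0.05. The levels of these 4 in the same cells were known when they were chosen, so their p-values are given as a description. FZD5 had a slope of -0.31 ± 0.16 log2 units per day (SE, unadjusted p = 0.0595 in limma) and SFRP2 -0.15 ± 0.11 (unadjusted p = 0.180 in limma). The slope was 0.15 ± 0.18 for DKK3 (unadjusted p = 0.393 in limma) and -0.07 ± 0.14 for SFRP1 (unadjusted p = 0.593 in limma). Each had an adjusted p of 0.9999 in limma, where the fit called 33 rising and 0 falling of 24896 probe sets (0.133%). At an unadjusted p under 0.05 the fit counted 880 rising and 291 falling, and none of the 4 members was among them. WLS had a slope of 0.51 ± 0.13 per day, given as a description. The other probe sets of SFRP1 and FZD5 had slopes between -0.04 and 0.05 with unadjusted p between 0.647 and 0.831 in limma.

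Within single cells the members fell into an uneven pattern. WLS was detected together with DKK3 in 13 of the 14 cells that had WLS, which were 43.3% of the 30 cells with DKK3. E14 replicate 2 was the cell with WLS alone of the pair. DKK3 was detected in most cells of E9 and E14 in any case. Signals of WLS and DKK3 correlated at r = 0.07 over 41 cells and at 0.001 without the arrays of high background. WLS and FZD5 were detected together in 0 cells, and WLS and SFRP2 in 0 cells. Of the 14 cells with WLS, 6 were E9 and 6 were E14 cells, ages at which FZD5 and SFRP2 were detected in 0 cells. Hardly any overlap was possible, no share over all probe sets was computed, and nothing is read from these counts. SFRP2 and FZD5 shared 5 cells, which were 71.4% of the 7 with SFRP2 and 55.6% of the 9 with FZD5, and SFRP1 was detected in 5 of the 7 and in 5 of the 9. Without the arrays of high background each of these pairs shared 3 cells, of 5 with SFRP2, 5 with FZD5 and 13 with SFRP1. For these pairs, too, no share over all probe sets was computed, and nothing is read from the counts. Signals of SFRP1 and SFRP2 correlated at r = 0.60 over 41 cells, of SFRP2 and FZD5 at 0.53 and of SFRP1 and FZD5 at 0.52. Without the arrays of high background these values were 0.51, 0.45 and 0.42 over 35 cells. Cells of an age share their stage, so these are descriptions.

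On the probe sets used, E4 replicate 2, an array of high background, and E5 replicate 5 each had 4 members detected, all except WLS. The E7 cell had SFRP1, SFRP2 and FZD5. In E5 replicate 5 the other FZD5 probe sets, at 2.58 and 4.55, were not detected. Of the other SFRP1 probe sets in it, at 2.54, 6.71 and 4.53, that at 6.71 was detected. On every array 20% of probe sets are detected, and the members were chosen with their levels known, so nothing is read from these counts. E5 replicate 5 had 18 of the 28 cell cycle genes detected and 3 of the 17 ganglion cell markers. E5 replicate 4 also had 18 cell cycle genes and 2 ganglion cell markers, but FZD5 read 2.56 and SFRP2 4.97 in it. The other 3 E5 cells had 1 to 7 cell cycle genes and 9 to 10 ganglion cell markers, and neither FZD5 nor SFRP2 was detected in them.

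FZD5 followed the cell cycle genes most closely among the members. Its signal correlated at r = 0.77 with the mean of the 28 cell cycle genes over 41 cells (0.74 over the 35 arrays without high background). Close to this, it was 0.72 with the mean of 7 ciliary margin genes and 0.70 with that of 13 retinal progenitor genes. With the mean of the 17 ganglion cell markers it was -0.66. Cells with FZD5 had 14 to 26 cell cycle genes detected, with the exception of E15 replicate 2, which had 7. The reverse did not hold for every cell: E3 replicate 6, E3 replicate 1 and E5 replicate 4 had 24, 17 and 18 cell cycle genes detected but not FZD5. With the cell cycle mean, SFRP2 correlated at 0.61, SFRP1 at 0.47, DKK3 at -0.49 and WLS at -0.38. With the ciliary margin mean the values were 0.56, 0.56, -0.40 and -0.39 in the same order. With the retinal progenitor mean they were 0.56, 0.55, -0.35 and -0.44. With the ganglion cell mean, WLS correlated at 0.32 and DKK3 at 0.34. The median of that mean was 9.70 over the E9 cells, which all had WLS detected, against 10.22 over the E6 cells. In 9 of the 10 E6 cells WLS was not detected. The points share arrays, background and age, and no test was made.

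**Figure D3:**
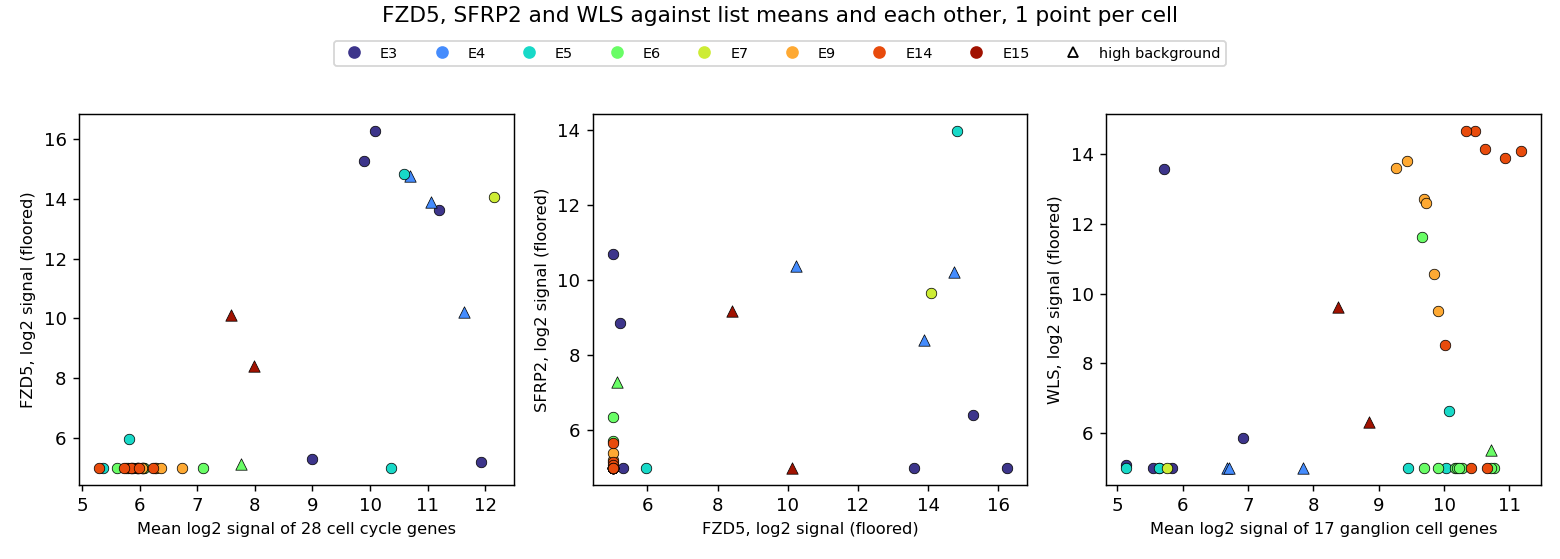
Floored log2 signal per cell, coloured by age, with triangles for arrays of high background: FZD5 against the mean of 28 cell cycle genes (left), SFRP2 against FZD5 (middle) and WLS against the mean of 17 ganglion cell genes (right). High FZD5 lies at high cell cycle means (r = 0.77). At ganglion cell means of 9 and above WLS runs from the floor to 14.66, with E5 replicate 2 at 6.63 and E14 replicate 8 at 8.51 in between. The E6 cells lie near the floor except for replicate 4 at 11.63.

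The genes most like each member over the 41 cells were ranked by Pearson r among 10586 genes. Such a ranking picks genes that share cells and timing with a member. The counts given here and in the next paragraph are therefore descriptions, and nothing is read from them. Over the 35 arrays without high background, r was 0.67 for MME with WLS, 0.87 for CDC20 with FZD5 and 0.77 for PENK with SFRP2. It was 0.89 for E2F5 with SFRP1 and 0.60 for CLTB with DKK3. For WLS they were MME (r = 0.66), which encodes the membrane peptidase neprilysin, SCN2A (0.64), a voltage-gated sodium channel, SAMD12 (0.63), ENO2 (0.63), the enolase of neurons, and TPD52 (0.61). Among these 5 genes, MME came nearest to the WLS counts by age. It was detected in 0 of 6 cells at E3, 1 of 10 at E6, 4 of 6 at E9 and 6 of 8 at E14, and 10 of its 11 cells also had WLS. SCN2A, SAMD12 and ENO2 were detected in all E9 and E14 cells but also in 5, 6 and 6 of the 10 E6 cells, which is more E6 cells than had WLS. FZD5 was most like CDC20 (0.88), an activator of the anaphase-promoting complex, BIRC5 (0.81), the survivin gene, and HJURP (0.79), a histone chaperone of the centromere. CDC20 was detected in all 9 cells with FZD5 and in 13 in all.

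For SFRP2 the nearest genes were PENK (0.81), which encodes proenkephalin, CASP8 (0.77), a caspase, and RAD18 (0.73), a ubiquitin ligase of DNA repair. PENK was detected in all 3 E4 cells, whose arrays had high background, in the E7 cell, in 1 cell at E5 and in 1 at E15. It was detected in 0 cells of E6, E9 and E14. At E3 it was also detected in 0 cells, where SFRP2 was detected in 3 of 6. SFRP1 was most like E2F5 (0.85), an E2F transcription factor, TMEM245 (0.82) and FBXO33 (0.76). DKK3 was most like CLTB (0.64), a clathrin light chain, GNB1 (0.63), a G protein subunit, and SCAMP5 (0.61), a membrane protein of secretory vesicles, which were detected in 33, 40 and 36 cells.

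Other genes of the pathway were read from lists of ligands, receptors, intracellular parts and targets. The lists held 97 genes on the array, of which 76 passed the filter and 21 were detected in under 3 cells. None of those tested other than WLS, for which no p is read, passed an adjusted p of 0.05 in limma, against 0.133% of all probe sets. At an unadjusted p under 0.05 there were 2 with a positive slope and 0 with a negative one, against 4.70% of all tested probe sets in either direction. TCF7L2, a transcription factor that works with beta-catenin, had a slope of 0.26 ± 0.10 per day (adjusted p = 0.555 in limma) and PRICKLE2, a planar polarity protein, 0.19 ± 0.07 (adjusted p = 0.430 in limma). The median slope of the tested genes other than WLS was 0.0057 per day, against 0.019 over all tested probe sets.

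The retromer, which returns WLS to the Golgi after each round, was read at ages before E9 as well. All 5 retromer genes of the list were detected in at least 10 cells. VPS35, its core subunit, was detected in 5 of 5 cells at E5, 6 of 10 at E6, 4 of 6 at E9 and 3 of 8 at E14. VPS29, a partner subunit, was found in 8 of 10 at E6, 6 of 6 at E9 and 5 of 8 at E14, and SNX3, the sorting nexin that binds WLS, in 4 of 10 at E6, 6 of 6 at E9 and 8 of 8 at E14. Their slopes were -0.13, -0.16 and 0.24 per day, and none passed the test. PORCN, the enzyme that adds the lipid to Wnt proteins, was not analysed here.

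Of 18 ligand genes, 17 were tested, and 6 were detected in at least 10 cells. WNT6 was detected in 35 cells, in 6 of 6 at E3 and 8 of 8 at E14, WNT16 in 19 and WNT9A in 15. Slopes of these 3 were -0.02, 0.03 and 0.04 per day. Among 15 secreted antagonists 8 were tested and 7 were detected in under 3 cells. Besides the members, DKK4, a Dickkopf protein, was detected in 16 cells, with 6 of 10 at E6, 0 of 6 at E9 and 5 of 8 at E14.

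Some other Frizzled genes were detected at the ages where FZD5 was not on the probe set used. FZD1 was detected in 20 cells, with 8 of 10 at E6, 4 of 6 at E9 and 3 of 8 at E14, and FZD2 in 24 cells, with 5, 3 and 6 at the same ages. FZD3 was detected in 14, with 3, 4 and 3. Others were as scarce as FZD5 at these ages. FZD4 was detected in 7 cells, with 3 of 3 at E4 and 1, 0 and 0 at E6, E9 and E14. FZD7 was detected in 0, 0 and 0 cells of the same 3 ages and FZD10 in 1, 0 and 0. Whether these profiles differ from that of FZD5 was not tested. The co-receptors LRP5 and LRP6 were detected in 6 and 4 cells and in 0 of the 24 cells of E6, E9 and E14. Of all tested probe sets, 3.59% were likewise detected in none of these 24 cells, and nothing is read from these counts. Of the 4 cells with LRP6, 1 was an E4 cell and 2 were E15 cells, all on arrays of high background. PTK7, a receptor of the kinase family without kinase activity, was detected in 23 cells. Of the genes around R-spondin signalling, LGR6, LGR4 and ZNRF3, which encode receptors of R-spondin and a ubiquitin ligase that removes Frizzled from the membrane, were detected in 17, 16 and 12 cells.

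Of 12 intracellular genes on the array, 8 were detected in at least 10 cells, and the 3 found in most cells are given here. CTNNB1 (beta-catenin) was detected in 31 cells, GSK3A and CSNK1A1, kinases that mark it for breakdown, in 36 each, and all 3 were detected in each of the 10 E6 and the 6 E9 cells. The nuclear co-repressors TLE3 and CTBP1 were detected in 37 and 31 cells and BCL9, a co-activator bound to beta-catenin, in 19. TCF7L2 was detected in 8 cells, of which 3 were E9 and 3 were E14 cells. Of the target genes, CCND1, a cyclin, was detected in 12 cells, with 3 of 3 at E4, 1 of 10 at E6, 1 of 6 at E9 and 1 of 8 at E14, and MYC, a transcription factor, in 10. CCND1 had a slope of -0.19 ± 0.15 per day (unadjusted p = 0.218 in limma). Planar polarity genes were scarce: DAAM1, PRICKLE2 and VANGL1 were detected in 6, 5 and 4 cells.

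**Figure D4:**
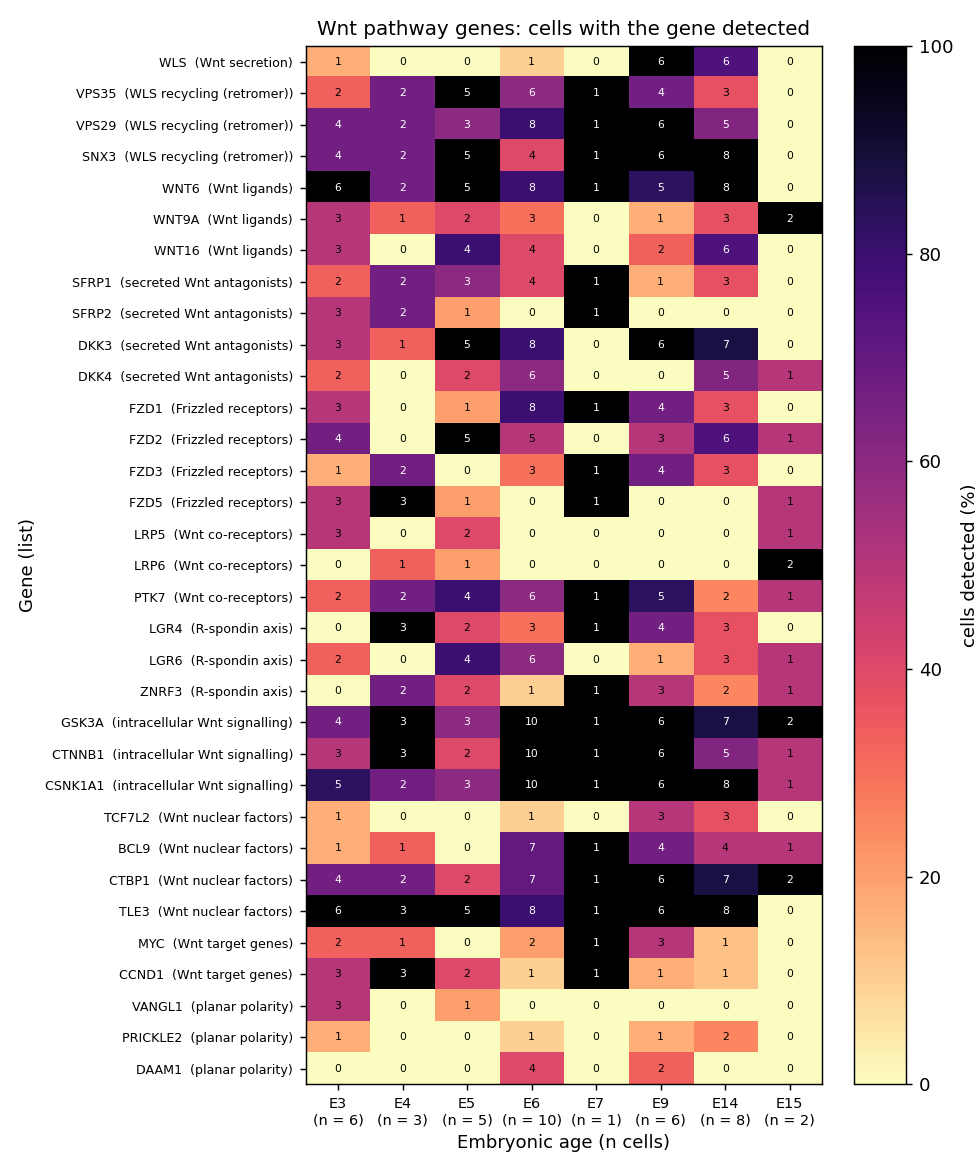
Share of cells of each age in which a named Wnt pathway gene was detected (colour, 0 to 100%), with the number of cells printed in each field, genes in rows by their list and ages in columns with their number of cells. WLS is at 6 of 6 cells at E9 and 1 of 10 at E6. SFRP2 and, on the probe set used, FZD5 stand at 0 at E6, E9 and E14, and GSK3A, CTNNB1 and CSNK1A1 are found at every age.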

How the data were processed

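Per the labels, polyA RNA of each cell was copied with an oligo dT primer, amplified over 35 PCR cycles and hybridised. Amplification of this kind favours 3′ ends and loses transcripts, so a low signal does not show absence. The authors deposited log2 values for 38535 probe sets, for which the submitters' processing notes name MAS5 (the sources used here do not give its version). The trimmed mean of the linear signal (2% off each end) was 500 to 500.2 on every array, and 0 sample columns were unused.

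Genes were named from the platform annotation, under which 27178 probe sets had 1 symbol. Where a gene had several probe sets, that of the highest mean floored value stood for it. The 153 control probe sets were left out. With limma 3.58.1 in R 4.3.3 (lmFit with weights, eBayes with trend), 8 age means were fitted on day with Benjamini-Hochberg adjustment. The variances had 6 residual and 77.6 prior degrees of freedom, so p-values draw mainly on variance shared over probe sets, measure scatter of age means around a line, and may reflect technical spread. The fit was also run on simulated data in which the values of each probe set were shuffled separately over cells. Such shuffling removes the background that probe sets of an array share, so nothing is read from that run. Other steps used Python 3.11.15 with numpy 2.4.6, pandas 2.3.3, scipy 1.17.1 and matplotlib 3.10.9.

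All members were named. From each pathway list the 3 genes detected in most cells and those at an unadjusted p under 0.05 were named, besides the 5 genes most like WLS and the 3 most like each other member. FZD4, FZD7 and FZD10 were added in the text alone, for their low counts at E6, E9 and E14. Members and lists were chosen with earlier results of these data known. Alternatives covered the floor, scaling, filter, weights, detection limit, probe set, high-background arrays, E6 replicate 1 and each cell or age. Protein and promoter sequences were not used here.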

Additional observations from a re-analysis of the deposited data

Results flagged for a closer look

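These cells stood far from the others of their age, judged by the gap to the nearest cell over the whole range on floored values. In all, 23 groups of 4 to 10 cells with a spread were examined and 11 gave such a cell. Chance gives about 1 in 20 groups where values spread freely, but that rate does not hold here: where all other cells tie at the floor, as for WLS in E5 replicate 2, SFRP2 in E5 replicate 5 and FZD5 in E6 replicate 7, the gap fills the whole range by construction. The cells of an age are also 1 sample, and WLS was selected on these values, so these are descriptions. WLS stood apart in E3 replicate 1 at 13.57, in E6 replicate 4 at 11.63 and in E5 replicate 2 at 6.63, which lay just under the detection limit. DKK3 was at the floor of 5.004 in E14 replicate 2, against 13.84 in the next cell. E5 replicate 5 stood apart in 3 members, with SFRP1 at 14.03, SFRP2 at 13.96 and FZD5 at 14.83. In this cell the other SFRP1 probe sets read 2.54, 6.71 and 4.53, of which that at 6.71 was detected. The other FZD5 probe sets read 2.58 and 4.55 in it, and neither was detected. SFRP1 also stood apart in E9 replicate 5 at 12.75 and, less far, in E3 replicate 4 at 7.84. SFRP2 in E14 replicate 8, at 5.67, and FZD5 in E6 replicate 7, at 5.13, are separated from cells at or near the floor by under 1 log2 unit, and neither was detected. No explanation was tested.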

How the results depend on the processing

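No paired analysis was possible because each age counted as 1 sample and cell numbers name cells without pairing them. The 33 slope calls became 0 with no floor, quantile normalization, a common 75th percentile, percentiles within the array, equal weights or no high-background arrays, 2 with a floor at the 25th percentile, 55 with no filter and 53 with E6 replicate 1 moved to E5. They lay between 0 and 121 with an age left out (0 without E4, 121 without E6, 72 without E9, 6 without E3, 9 without E14, 16 without E7) and between 15 and 66 with a cell left out. No alternative made DKK3, SFRP1, SFRP2 or FZD5 pass the threshold. The slope of DKK3 was -0.046 with equal weights and -0.20 to 0.34 with an age left out (-0.20 without E14), and that of SFRP1 -0.16 to 0.10 (0.10 without E14). The WLS difference of E9 minus E6 was 8.41 with no floor and 6.17 to 8.41 over the alternatives. FZD5, E6 minus E3, was 1.19 on the probe set with the highest mean of deposited values, an alternative chosen after seeing the data, as was leaving out E3 replicates 4 and 6. With detection at the 90th percentile, DKK3 was found in 3 of 6 E9 cells, SFRP1 in 0 E3, 1 E6 and 0 E14 cells and SFRP2 in 0 E7 cells, and with the 70th percentile SFRP1 was found in 5 E3 cells. A further 395 comparisons of differences, counts and calls with an alternative moved by less than the cells' spread or the counting interval, or within 1.5 times for calls. The cause of these changes was not tested. Differences between E9, E6 and E14 for FZD5 and SFRP2 have no order, since no cell was above the detection limit. High background limits what can be read at E4 and E15.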
